A study of Homo sapiens with 40 samples.

Results

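The 37 genes of the human mitochondrial chromosome were followed in HepaRG cells exposed to PCB 126, glyphosate or Roundup. They were taken by name, as every gene whose symbol starts with MT- in the 2 deposited tables, and made up 37 of 56568 gene names: 13 genes for proteins of the respiratory chain, 2 for ribosomal RNA (rRNA) and 22 for transfer RNA (tRNA). HepaRG (HPR 116) is an established line of human liver origin whose differentiated cultures hold cells of hepatocyte and of biliary character, and all 40 libraries come from the same line. The terminally differentiated cultures received their agent from day 8 to day 14 in Williams' E medium with 2% FBS and 1% DMSO, which the solvent control received as well. There were 8 groups of 5 libraries. Besides the solvent control, 3 groups received PCB 126 (100 pM, 10 nM or 1 µM), 3 received glyphosate (10 µg/L, 1 mg/L or 0.1 g/L) and 1 received Roundup (Grand Travaux +, 10 µg/L). PCB 126 is a dioxin-like polychlorinated biphenyl, glyphosate is a herbicide, and Roundup is a formulated product containing it. Total RNA was depleted of rRNA before the libraries were made, and each value is an FPKM, the fragments assigned to a transcript scaled to its length and to the mapped fragments of the library.

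The summed FPKM of a library ranged from 255292 to 513059 over the 40 libraries, and the number of fragments behind each value was not in the tables. The cultures carried hepatocyte markers at 5693 to 26645 summed FPKM (8 of 8 genes above 0 in every library) and biliary or progenitor markers at 122 to 479 summed FPKM (4 of 6 genes above 0 in every library). At 1 µM PCB 126 the hepatocyte marker sum was lower than in the control group without overlap, 5693 to 14478 FPKM (median 9806) against 14591 to 21270 (median 21119). The biliary or progenitor sum was lower there as well, 122 to 215 FPKM against 224 to 452. ALB (control median 10883 FPKM) and KRT19 (309) made up much of the 2 sums. By gene, 2 of 8 hepatocyte markers and 0 of 3 tested biliary or progenitor markers were lower at an adjusted p under 0.05 in limma. The background was 1.87% of all genes tested, and 2.35% had values that did not overlap control. Replicate 1 of the 1 µM group stood apart among the mitochondrial genes, with the lowest values of all libraries for MT-CYB, MT-TY and MT-TP, and results that rest on it are given with and without it.

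Mitochondrial DNA is a small circular chromosome that is present in many copies per cell and is transcribed from both strands into long precursors. The tRNAs lie between most of the rRNA and protein genes and are cut out of the precursor, which releases the other RNAs, so genes transcribed together can still accumulate to different levels. The proteins are subunits of complexes I, III, IV and V of the respiratory chain, which hepatocytes use heavily to make ATP, whereas the transcription, RNA processing and ribosomal proteins that express these genes come from the nucleus.

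Every member was represented by 1 transcript in the tables, and the start, end and strand of all 37 were the same as in GENCODE 44 on GRCh38, where the chromosome has 16569 bases. Because the chromosome is so compact, several members share bases, and fragments from a shared base can be assigned to either gene. The first sequences below are of members that share a base or were above 0 in every library. MT-TY and MT-TC are neighbouring tRNAs for tyrosine and cysteine on the reverse strand, and the capital marks the single base (position 5826) that belongs to both. MT-TP, the tRNA for proline, is shown because it and MT-TY were the 2 members above 0 in every library. All sequences are from GRCh38 and are written 5′ to 3′ on the strand of the gene, with MT-TY at positions 5826 to 5891, MT-TC at 5761 to 5826 and MT-TP at 15956 to 16023.
MT-TY: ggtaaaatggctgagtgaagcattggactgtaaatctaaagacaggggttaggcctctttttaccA
MT-TC: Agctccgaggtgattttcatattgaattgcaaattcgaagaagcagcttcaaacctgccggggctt
MT-TP: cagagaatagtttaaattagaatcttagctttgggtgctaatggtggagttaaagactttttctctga

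MT-ATP8 and MT-ATP6, the 2 mitochondrially encoded subunits of ATP synthase, are read from 1 stretch of RNA in different frames. Positions 8505 to 8594 are printed, with the 46 bases that both genes hold (8527 to 8572) in capitals.
MT-ATP8/MT-ATP6: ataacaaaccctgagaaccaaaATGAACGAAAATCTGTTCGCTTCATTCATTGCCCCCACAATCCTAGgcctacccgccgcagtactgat

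MT-CO1 encodes the catalytic subunit of complex IV, cytochrome c oxidase, and has a near-complete nuclear copy, MTCO1P12, on chromosome 1 (631074 to 632616). Over 1542 aligned bases the copy differed from MT-CO1 at 20 positions (98.7% identity). The first 75-base stretch with the largest number of differences is shown for both, with the 3 differing bases in capitals, from positions 6192 to 6266 of the mitochondrial chromosome and 631362 to 631436 of chromosome 1.
MT-CO1 stretch: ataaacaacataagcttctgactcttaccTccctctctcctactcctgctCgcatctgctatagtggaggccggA
MTCO1P12 stretch: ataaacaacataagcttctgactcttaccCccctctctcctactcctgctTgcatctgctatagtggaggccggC

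The first feature of these genes was how often a library listed them at exactly 0. Of 1480 values (37 genes in 40 libraries), 777 (52.5%) were 0: 300 of 520 (57.7%) for the mRNA genes, 466 of 880 (53.0%) for the tRNA genes and 11 of 80 (13.8%) for the rRNA genes. A value of 0 in a table of estimates can be a failed estimate, so it is given below as listed at 0 and never as absence. Nuclear genes of the same complexes were not listed in this way, since all 19 nuclear subunits of complexes III and IV and all 15 of complex V were above 0 in all 40 libraries. In all, 6 members were at 0 throughout, namely MT-ND3, a complex I subunit, and the tRNAs MT-TA, MT-TN, MT-TR, MT-TH and MT-TL2. Those above 0 in 39 or 40 libraries were MT-TY, MT-TP, MT-RNR2, MT-CO1 and MT-CYB. The number of members above 0 in a library ranged from 12 to 25, with medians of 19 in the control group, 21, 18 and 18 in the PCB 126 groups from the lowest concentration upwards, 15 at 10 µg/L, 20 at 1 mg/L and 14 at 0.1 g/L glyphosate, and 16 in Roundup.

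**Figure D1:**
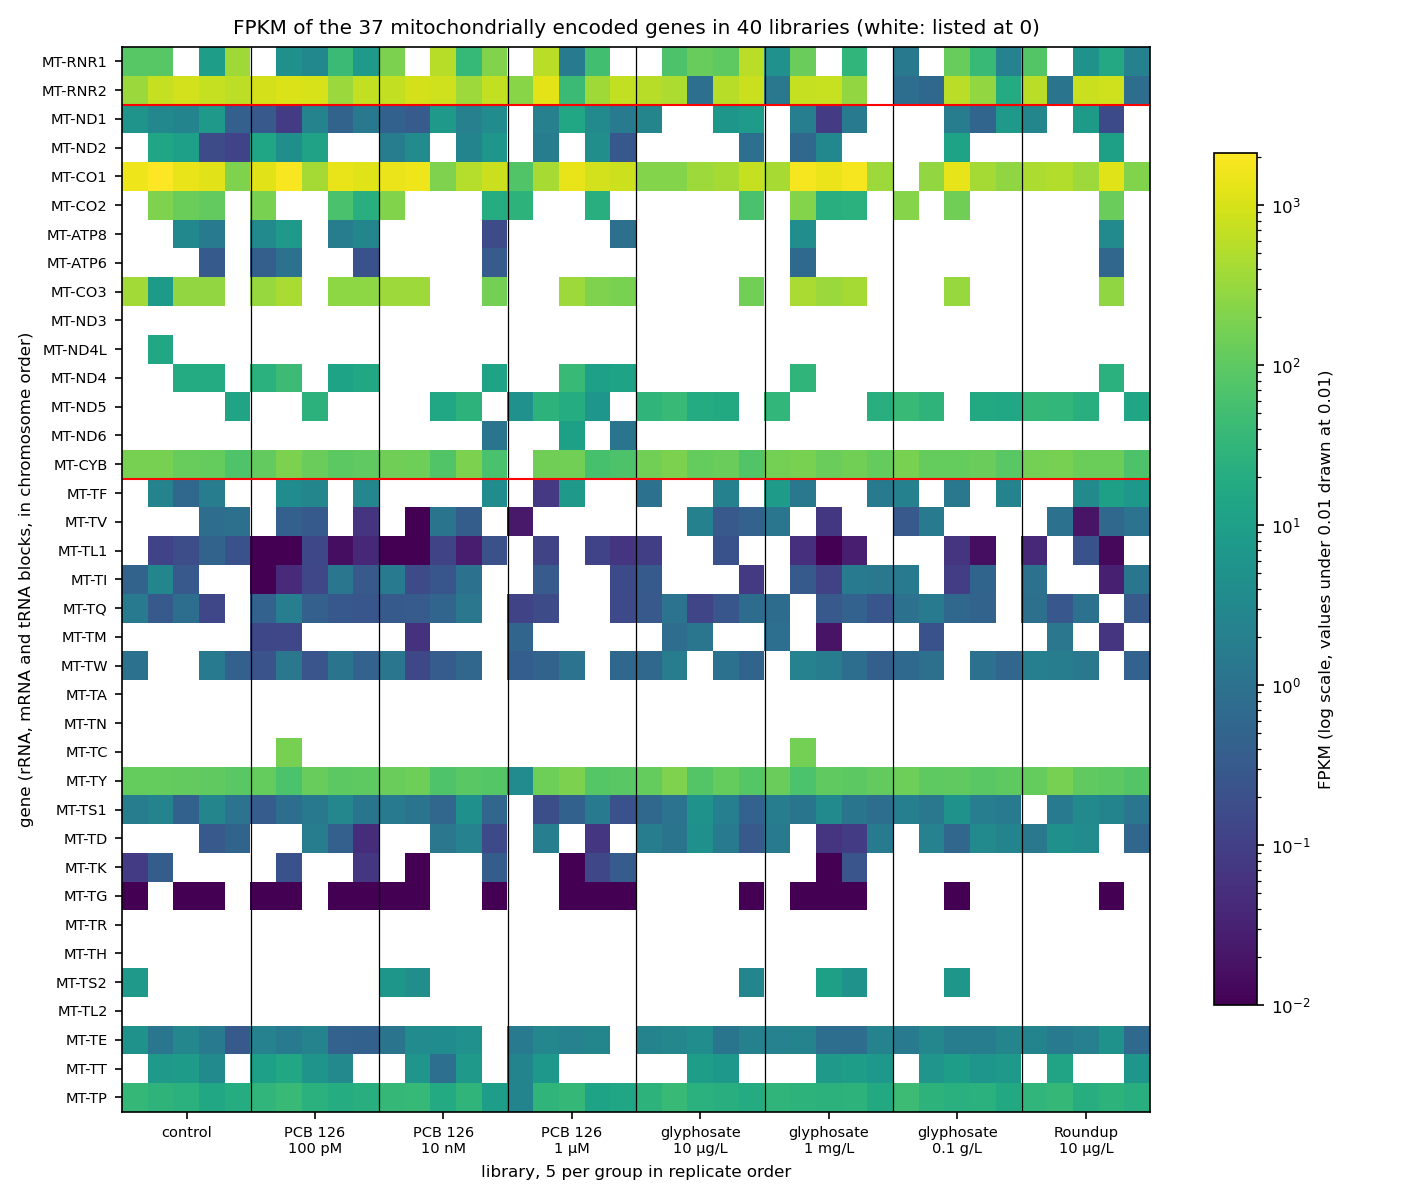
FPKM (colour, log scale) of the 37 mitochondrially encoded genes (rows) in the 40 libraries (columns, 5 per group), with white for values listed at 0. MT-RNR2, MT-CO1, MT-CYB, MT-TY and MT-TP form near-continuous rows, while MT-CO3 and MT-ND5 alternate between libraries.

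MT-RNR2 and MT-RNR1 encode the large and the small rRNA of the mitochondrial ribosome, and both were measured after a step that depletes rRNA. MT-RNR2 was listed at 338, 718, 889, 698 and 629 FPKM in the 5 control libraries, in the order of the replicates. It was listed at 953, 1115, 987, 325 and 668 at 100 pM PCB 126, at 671, 934, 886, 351 and 668 at 10 nM and at 233, 1276, 42.5, 366 and 676 at 1 µM. Replicate 3 at 1 µM was the lowest of these libraries, and the values of each PCB 126 group overlapped those of the control group. In the herbicide groups it was listed at 569, 463, 0.880, 562 and 774 at 10 µg/L glyphosate, at 1.36, 708, 756, 292 and 0 at 1 mg/L, at 0.846, 0.592, 596, 294 and 18.7 at 0.1 g/L, and at 604, 1.14, 791, 862 and 0.799 in Roundup. The herbicide groups thus held both high and very low values: 1 of 5, 2 of 5, 2 of 5 and 2 of 5 were below 2 FPKM in these 4 groups, against 0 of 5 in the control and in each PCB 126 group.

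MT-RNR1 was more uneven and was listed at 0 in 10 of 40 libraries. Its control values were 86.9, 88.5, 0, 9.32 and 372 FPKM. Those at 100 pM, 10 nM and 1 µM PCB 126 were 0, 4.75, 3.09, 41.9 and 7.36, then 184, 0, 555, 37.2 and 204, then 0, 585, 1.46, 52.2 and 0. Every group contained a library at 0, so no PCB 126 group separated from the control group. With glyphosate, from the lowest dose upwards, they were 0, 67.8, 122, 99.7 and 601, then 4.84, 129, 0, 32.0 and 0, then 1.44, 0, 124, 38.4 and 2.29, and in Roundup 80.4, 0, 5.11, 16.4 and 2.18. Each of these groups also held 1 or 2 libraries at 0 and overlapped the control group. The 2 rRNA genes lie next to each other with only the tRNA MT-TV between them, yet 8 libraries had MT-RNR2 above 2 FPKM with MT-RNR1 at or below 2 FPKM, and 3 had the reverse.

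Of the members, 7 encode subunits of complex I, which oxidizes NADH, and none of them was above 0 in every library. MT-ND5, which encodes one of the proton-pumping membrane subunits, was above 0 in 22 libraries. It was listed at 0, 0, 0, 0 and 12.5 FPKM in the control group. With PCB 126 it was at 0, 0, 25.9, 0 and 0 (100 pM), 0, 0, 14.7, 27.3 and 0 (10 nM) and 4.96, 27.4, 19.8, 6.24 and 0 (1 µM). Among the control libraries replicate 5 alone was above 0, as were 1, 2 and 4 libraries of the PCB 126 groups. In the herbicide groups it was listed at 30.01, 41.1, 19.1, 16.7 and 0 at 10 µg/L glyphosate, at 33.2, 0, 0, 0 and 22.3 at 1 mg/L, at 39.8, 29.1, 0, 17.2 and 15.5 at 0.1 g/L and at 35.0, 33.7, 21.8, 0 and 14.1 in Roundup. There, 4 of 5 libraries were above 0 at 10 µg/L, at 0.1 g/L and in Roundup, and each of those values was higher than the highest control value, but the remaining library of each group was at 0 and the groups overlapped the control group. At 1 mg/L glyphosate only 2 of 5 libraries were above 0.

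MT-ND1, another membrane subunit of complex I, was low in all libraries, with a highest value of 15.4 FPKM. Its values were 5.65, 3.00, 2.46, 7.24 and 0.421 in the control group and 0.305, 0.0880, 2.46, 0.506 and 1.42, then 0.459, 0.330, 7.30, 2.04 and 3.65, then 0, 2.07, 15.4, 3.51 and 1.51 at the rising PCB 126 concentrations. With glyphosate, in the same order of dose, they were 2.63, 0, 0, 6.60 and 8.45, then 0, 1.92, 0.0873, 1.46 and 0, then 0, 0, 1.72, 0.556 and 7.69, and in Roundup they were 2.79, 0, 8.13, 0.157 and 0. All 5 control libraries were above 0, whereas each herbicide group held 2 libraries at 0, and all groups overlapped. MT-ND6, the only protein gene on the reverse strand, was above 0 in 3 of 40 libraries, at 1.09 FPKM in 10 nM replicate 5 and at 10.5 and 1.09 FPKM in 1 µM replicates 3 and 5. MT-ND4 was above 0 in 12 libraries, MT-ND2 in 19 with a highest value of 14.4 FPKM, and MT-ND4L in 1, control replicate 2, at 15.5 FPKM.

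MT-CYB, which encodes cytochrome b and is the only mitochondrial gene for complex III, was above 0 in 39 of 40 libraries. It was at 166, 169, 120.1, 115 and 73.2 FPKM in the control group and at 110.2, 184, 129, 93.5 and 106 at 100 pM, 146, 144, 73.7, 191 and 63.6 at 10 nM and 0, 149, 156, 59.9 and 68.8 at 1 µM PCB 126. The herbicide groups had 155, 192, 119, 129 and 74.4 at 10 µg/L, 159.9, 180.1, 131, 151 and 118 at 1 mg/L, 177, 117, 117, 126 and 89.6 at 0.1 g/L and 165, 172, 135, 134 and 67.9 in Roundup. Outside library 1 of the 1 µM group, which was listed at 0, the 39 other values lay between 59.9 and 192 FPKM, and no group separated from the control group.

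The 3 mitochondrial genes for complex IV differed widely between libraries. MT-CO1 was the largest member in 28 of 40 libraries, MT-RNR2 in 11 and MT-CO2 in 1, and MT-CO1 and MT-RNR2 together held a median of 69.6% of the mitochondrial FPKM. MT-CO1 was listed at 1506, 2009, 1411, 1223 and 193 FPKM in the control group. With PCB 126 it was at 1221, 1846, 402, 1419.8 and 1151 (100 pM), 1438, 1538, 194, 532 and 803 (10 nM) and 75.98, 431, 1382, 919.8 and 807 (1 µM). In the control group 4 of 5 libraries were above 600 FPKM, as were 4, 3 and 3 libraries of the PCB 126 groups, and the control value of replicate 5 lay below all PCB 126 values but 1. It was listed at 213, 216, 347, 395 and 699 at 10 µg/L glyphosate, at 429, 1771, 1487, 1790.5 and 357 at 1 mg/L, at 0, 293, 1352, 411 and 279.8 at 0.1 g/L and at 464, 516, 351, 1159 and 210.2 in Roundup. Only 1 of 5 libraries was above 600 FPKM at 10 µg/L, at 0.1 g/L and in Roundup, against 3 of 5 at 1 mg/L.

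MT-CO3, a structural subunit of complex IV, was either at 0 or, in 19 of the 20 libraries above 0, over 100 FPKM. Its values were 381, 8.12, 285, 290.5 and 0 FPKM in the control group and 310.0, 443, 0, 266 and 268, then 355, 347, 0, 0 and 162, then 0, 0, 353, 197 and 178 at 100 pM, 10 nM and 1 µM PCB 126. They were 0, 0, 0, 0 and 158 at 10 µg/L, 0, 435, 336, 395 and 0 at 1 mg/L and 0, 0, 312, 0 and 0 at 0.1 g/L glyphosate, and 0, 0, 0, 270.0 and 0 in Roundup. The gene was above 0 in 4 of 5 control libraries, in 4, 3 and 3 of the PCB 126 groups, and in 1, 3, 1 and 1 of the herbicide groups. MT-CO2, which carries the copper centre that receives electrons from cytochrome c, was above 0 in 17 libraries at 19.3 to 229 FPKM.

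**Figure D2:**
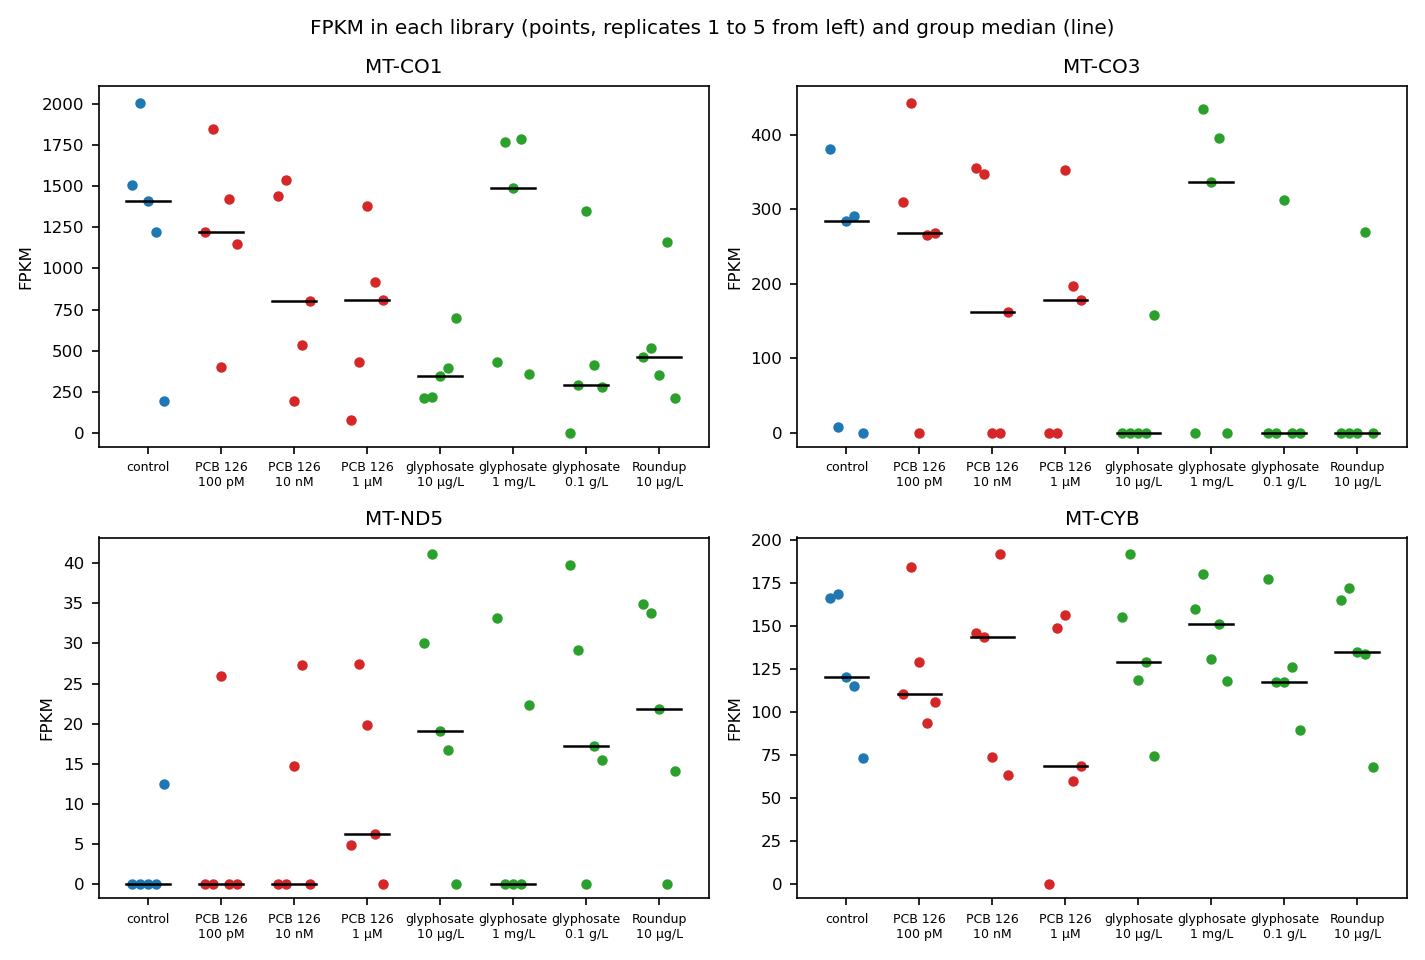
FPKM of MT-CO1, MT-CO3, MT-ND5 and MT-CYB in each library (points) with the group median (line), for the control group (blue), the PCB 126 groups (red) and the herbicide groups (green). MT-CO3 is at 0 in 4 of 5 libraries at 10 µg/L and 0.1 g/L glyphosate and in Roundup, where MT-ND5 is above 0 in 4 of 5, while MT-CYB stays between 59.9 and 192 FPKM except in 1 library at 1 µM PCB 126.

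The 2 genes for complex V, ATP synthase, were low where they were listed at all. MT-ATP8 was above 0 in 10 libraries with a highest value of 7.11 FPKM, and MT-ATP6 in 7 with a highest value of 0.963 FPKM. All 7 libraries with MT-ATP6 above 0 also had MT-ATP8 above 0. These genes share the 46 bases printed above, whose part in the values was not tested. MT-ATP6 was listed at 0, 0, 0, 0.320 and 0 FPKM in the control group, at 0.410, 0.963, 0, 0 and 0.220 at 100 pM PCB 126 and at 0, 0, 0, 0 and 0.344 at 10 nM. It was at 0, 0.673, 0, 0 and 0 at 1 mg/L glyphosate and at 0, 0, 0, 0.584 and 0 in Roundup. It was at 0 in every library of the other 3 groups.

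Among the tRNA genes, which are 59 to 75 bases long and so no longer than a 75-base read, 2 stood far above the rest. MT-TY had a median of 105 FPKM over 40 libraries and MT-TP 25.6 FPKM, whereas the third, MT-TT, had 3.38 FPKM. MT-TY was at 119, 115, 109.6, 105 and 90.6 FPKM in the control group and at 3.62, 142, 187, 82.8 and 89.8 at 1 µM PCB 126. Outside library 1 of that group, at 3.62 FPKM, MT-TY lay between 66.1 and 195 FPKM in all groups. MT-TP was at 35.5, 29.5, 25.4, 15.7 and 19.6 in the control group and at 2.46, 30.7, 34.9, 12.4 and 14.2 at 1 µM, and the same library was the lowest of all 40 for both tRNAs. MT-TC, which shares 1 base with MT-TY, was above 0 in 2 libraries only, at 174 FPKM in 100 pM replicate 2 and at 166 FPKM in 1 mg/L replicate 2. In these 2 libraries MT-TY was at 66.1 and 66.6 FPKM, the lowest values outside 1 µM replicate 1. The part of the shared base in these values was not tested.

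The listing of several members went together, which concerns which transcripts had a value in a library and not only their level. MT-CO3 and MT-ND5 were rarely above 0 together: 18 libraries had only MT-CO3 above 0, 20 had only MT-ND5, 2 had both (1 µM replicates 3 and 4) and none had neither. MT-ND4 (12 libraries), MT-ATP8 (10), MT-TK (11) and MT-TG (19, none above 0.00916 FPKM) were above 0 only in libraries with MT-CO3 above 0. All 19 libraries with MT-CO3 over 100 FPKM had MT-CO1 over 600 FPKM, and only 1 further library did, control replicate 2, with MT-CO1 at 2009 and MT-CO3 at 8.12 FPKM. MT-CYB, which follows MT-ND5 and MT-ND6 on the chromosome, was above 0 in 39 libraries irrespective of these patterns. These counts were chosen after the values were seen, and they describe the tables without a test.

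The mitochondrial genes together took a small share of each library, from 0.106% to 1.02% of the summed FPKM over the 40 libraries. In the control group the share was 0.563, 0.723, 0.707, 0.640 and 0.465 percent. It was 0.782, 0.773, 0.379, 0.514 and 0.622 percent at 100 pM, 0.739, 1.02, 0.690, 0.290 and 0.683 at 10 nM and 0.106, 0.623, 0.501, 0.402 and 0.609 at 1 µM PCB 126. The medians of the control and the 3 PCB 126 groups were 0.640%, 0.622%, 0.690% and 0.501%, and 1, 1 and 2 libraries of the PCB 126 groups were below the lowest control library.

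Among the herbicide groups the share was 0.235, 0.238, 0.212, 0.309 and 0.879 percent at 10 µg/L glyphosate, 0.179, 0.787, 0.749, 0.636 and 0.158 at 1 mg/L, 0.140, 0.181, 0.685, 0.228 and 0.141 at 0.1 g/L and 0.308, 0.190, 0.409, 0.888 and 0.163 in Roundup. Their medians were 0.238%, 0.636%, 0.181% and 0.308%, and 4, 2, 4 and 4 of 5 libraries were below the lowest control library at 0.465%. The highest library of each group was above the control median, so that all groups overlapped the control group. At 10 µg/L glyphosate and in Roundup this library was among those with many multiply aligned read pairs, as was the lowest control library. Roundup replicate 5, the lowest of its group at 0.163%, was also among them. Leaving out all such libraries removed 1 of 5 in control, 1 of 5 at 10 µg/L and 2 of 5 in Roundup. The share was then 0.212% to 0.309% at 10 µg/L and 0.190% to 0.409% in Roundup, against 0.563% to 0.723% in control. The groups at 1 mg/L and 0.1 g/L still overlapped the control group. The share was not tested because it is a score over all members. As these are bulk cultures, fewer cells of a type and less mitochondrial RNA per cell cannot be told apart. In the herbicide groups the share was 0.636% to 0.888% in libraries with MT-CO3 above 0 and 0.140% to 0.409% in those that listed it at 0. In the control and PCB 126 groups the shares of such libraries overlapped. There, 10 nM replicate 3, with MT-CO3 at 0, had 0.690%, and 1 µM replicate 4, with MT-CO3 at 197 FPKM, had 0.402%. MT-CO3 is itself part of the share. The part of members listed at 0 in the share was not tested. The mRNA genes carried 0.0328% to 0.653% of a library, the rRNA genes 0 to 0.544%, and the tRNA genes 0.00340% to 0.0628%. The group medians of the tRNA share ran from 0.0347% at 1 µM to 0.0455% in Roundup. Control replicate 5 shows how the classes can part: its mRNA share of 0.0933% was the lowest of its group and its rRNA share of 0.334% the highest.

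**Figure D3:**
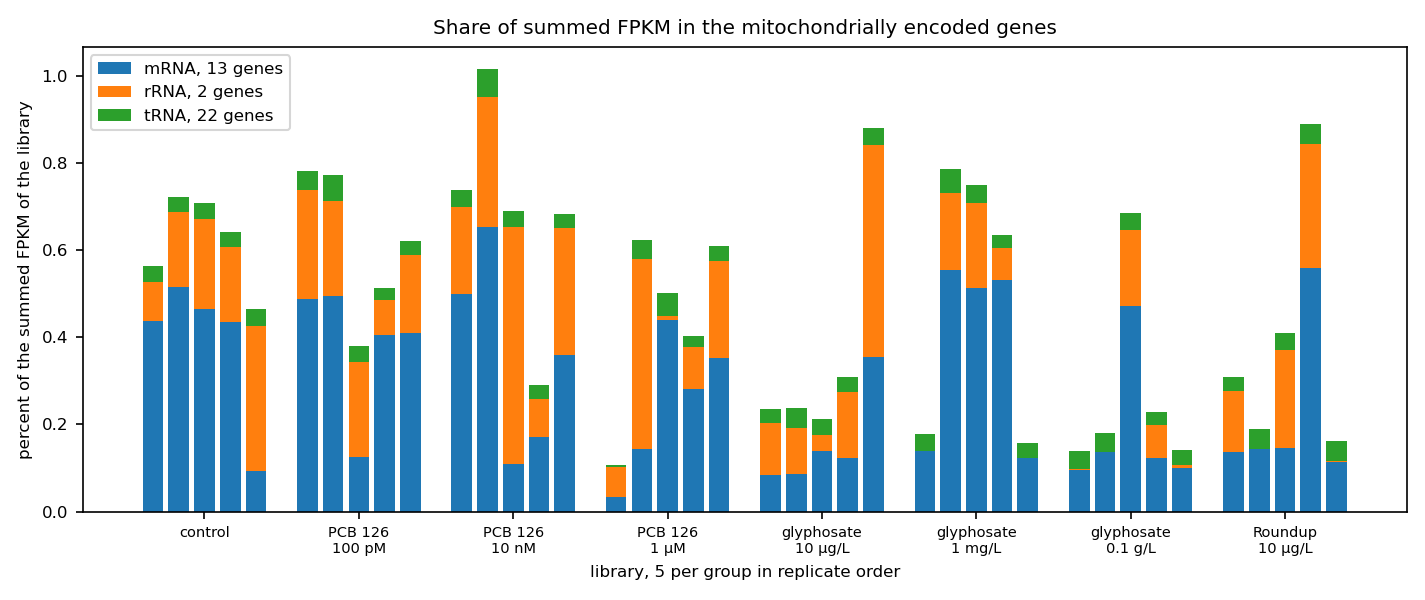
Percent of the summed FPKM of each library carried by the mitochondrial mRNA, rRNA and tRNA genes (stacked bars), with 5 libraries per group. The libraries range from 0.106% to 1.02%, and 4 of 5 libraries at 10 µg/L and 0.1 g/L glyphosate and in Roundup are below the lowest control library at 0.465%.

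The PCB 126 comparison asks whether a dioxin-like compound alters the RNA of these genes over 3 concentrations. No mitochondrially encoded gene passed the test in any of these comparisons, although several medians differed from control. The test was limma on log2(FPKM + 1) over all genes with a variance of FPKM above 1, with Benjamini-Hochberg adjustment and a threshold of 0.05. This filter kept 9755 genes and 21 of the 37 members, and the 16 others (MT-ND3, MT-ATP6 and 14 tRNA genes) varied too little to be tested. Across the 4 groups, 0 of 21 members were called, where 1.39% of all genes tested were called, and in a fit of all 8 groups 0 of 22 were called by limma at a background of 2.3% (smallest adjusted p 0.145). Across the 4 PCB 126 groups 1 of the 21 members had an unadjusted p under 0.05 in limma, against 9.56% of all genes, namely MT-ATP8, with an adjusted p of 0.117.

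MT-ATP8 was listed at 0, 0, 3.08, 1.66 and 0 FPKM in the control group and at 3.41, 7.11, 0, 1.83 and 2.73 at 100 pM. At 10 nM it was at 0, 0, 0, 0 and 0.171 and at 1 µM at 0, 0, 0, 0 and 0.931. Hence 4 of 5 libraries were above 0 at 100 pM, against 2, 1 and 1 in the control, 10 nM and 1 µM groups. The next smallest p-values across groups in limma belonged to MT-ND4 (adjusted p = 0.686) and MT-TS1 (adjusted p = 0.698). MT-ND4, a membrane subunit of complex I, had 0, 0, 19.1, 19.2 and 0 FPKM in the control group and 24.8, 44.4, 0, 11.98 and 15.2 at 100 pM, 0, 0, 0, 0 and 12.4 at 10 nM and 0, 0, 38.7, 10.2 and 12.5 at 1 µM. It was thus above 0 in 2, 4, 1 and 3 libraries, and the groups overlapped.

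At 100 pM against control, 0 of 21 members were called by limma at a background of 0% of genes, and 1 had an unadjusted p under 0.05, as had 1.19% of all genes (MT-ATP8, a difference of 1.02 ± 0.43 SE on the log2(FPKM + 1) scale, adjusted p = 1). At 10 nM, 0 of 21 were called at a background of 0.205%, and 0 had an unadjusted p under 0.05, against 4.85% of all genes. At 1 µM, 0 of 21 were called at a background of 1.87%, and 2 had an unadjusted p under 0.05 in limma, against 13.6% of all genes, namely MT-ND6 (0.92 ± 0.44 SE, adjusted p = 0.367) and MT-TS1 (-0.84 ± 0.36 SE, adjusted p = 0.286). MT-TS1, a tRNA for serine, was listed at 1.70, 2.38, 0.455, 2.65 and 1.08 FPKM in the control group and at 0, 0.188, 0.439, 1.62 and 0.216 at 1 µM. Of the values at 1 µM, 4 of 5 were below every control value, and the fifth was within their range. At 100 pM it was at 0.360, 0.834, 1.41, 2.90 and 1.18 and at 10 nM at 1.501, 1.11, 0.575, 4.77 and 0.562, both overlapping the control values. The MT-ND6 estimate was 0.27 without 1 µM replicate 3. No member had values that did not overlap between a PCB 126 group and control, where 0.164%, 0.513% and 2.35% of all genes tested had such values at 100 pM, 10 nM and 1 µM.

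MT-CYB had an estimate of -1.64 ± 0.82 SE at 1 µM on the log2(FPKM + 1) scale, with an unadjusted 95% interval from -3.34 to 0.06 (limma, adjusted p = 0.386). That value rests on the library listed at 0, since the estimate without 1 µM replicate 1 was -0.31. The median difference of all genes tested at 1 µM was -0.26, and the hepatocyte marker sum was lower in the same libraries. The part of these shifts in the values of the mitochondrial genes was not tested.

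The glyphosate and Roundup comparison asks the same of a herbicide at 3 concentrations and of a formulated product at the lowest of them. Here too no member passed the test, and the highest and lowest values of each herbicide group overlapped the control values for all 21 members tested. The limma fit held 9533 genes, and across the 5 groups 0 of 21 members were called at a background of 0% of genes. Here 2 members had an unadjusted p under 0.05, against 1.36% of all genes, namely MT-TD and MT-ND5, both with an adjusted p of 0.995 in limma. MT-CO1 had the third smallest p and the same adjusted p.

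MT-TD, the tRNA for aspartate that lies between MT-CO1 and MT-CO2, was low throughout, with a highest value of 4.74 FPKM. It was listed at 0, 0, 0, 0.308 and 0.526 FPKM in the control group and at 1.76, 1.11, 4.66, 1.60 and 0.305 at 10 µg/L, 1.47, 0, 0.0653, 0.0855 and 1.52 at 1 mg/L and 0, 2.28, 0.568, 3.29 and 2.56 at 0.1 g/L glyphosate, and at 1.38, 4.74, 3.75, 0 and 0.585 in Roundup. In the groups at 10 µg/L, at 0.1 g/L and in Roundup, 4 of 5 libraries were above the highest control value of 0.526 FPKM, and the remaining library of each was at or below it. Of the 22 libraries with MT-ND5 above 0, 19 also had MT-TD above 0.

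At 10 µg/L glyphosate against control, 0 of 21 members were called by limma at a background of 0%, and 3 had an unadjusted p under 0.05, against 0.997% of all genes. These were MT-ND5 (3.01 ± 1.15 SE on the log2(FPKM + 1) scale), MT-TD (1.16 ± 0.44 SE) and MT-CO3 (-4.16 ± 2.02 SE), each with an adjusted p of 1. At 1 mg/L, 0 of 21 were called at a background of 0%, and 1 had an unadjusted p under 0.05 in limma, against 1.31% of all genes, namely MT-ND1 (-1.42 ± 0.67 SE, adjusted p = 0.963). At 0.1 g/L, 0 of 21 were called at a background of 0%, and 4 had an unadjusted p under 0.05, against 0.881% of all genes, namely MT-RNR2 (-4.63 ± 2.02 SE), MT-CO1 (-2.89 ± 1.08 SE), MT-ND5 (2.95 ± 1.15 SE) and MT-TD (1.06 ± 0.44 SE), each with an adjusted p of 1 in limma. The MT-CO1 estimate includes the library listed at 0 and was -1.12 without it. The values of several of these members were linked. MT-CO3 and MT-ND5 were both above 0 in only 2 libraries, and 19 of the 22 libraries with MT-ND5 above 0 also had MT-TD above 0. The counts of members given here and for Roundup are therefore not counts of separate results.

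In Roundup, 0 of 21 members were called by limma at a background of 0%, and 2 had an unadjusted p under 0.05, against 1.73% of all genes, namely MT-ND5 (2.99 ± 1.15 SE) and MT-TD (1.14 ± 0.44 SE), both with an adjusted p of 0.902. Roundup and glyphosate were both given at 10 µg/L, and in that direct comparison 0 of 21 members were called at a background of 0%, with 0 at an unadjusted p under 0.05 in limma, against 1.27% of all genes. For MT-ND5 the difference between Roundup and glyphosate was -0.02 with an unadjusted 95% interval from -2.37 to 2.33, and for MT-CO1 it was 0.44 with an interval from -1.77 to 2.65. Values that did not overlap were found for 0 members in each of these comparisons. Over all genes the share was 0.0524%, 0.178% and 0.0839% for the rising glyphosate doses, 0.042% in Roundup and 0.105% between Roundup and glyphosate. The herbicide comparisons share the 5 control libraries with each other and with the PCB 126 comparisons, so that a high or low control library enters all of them.

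**Figure D4:**
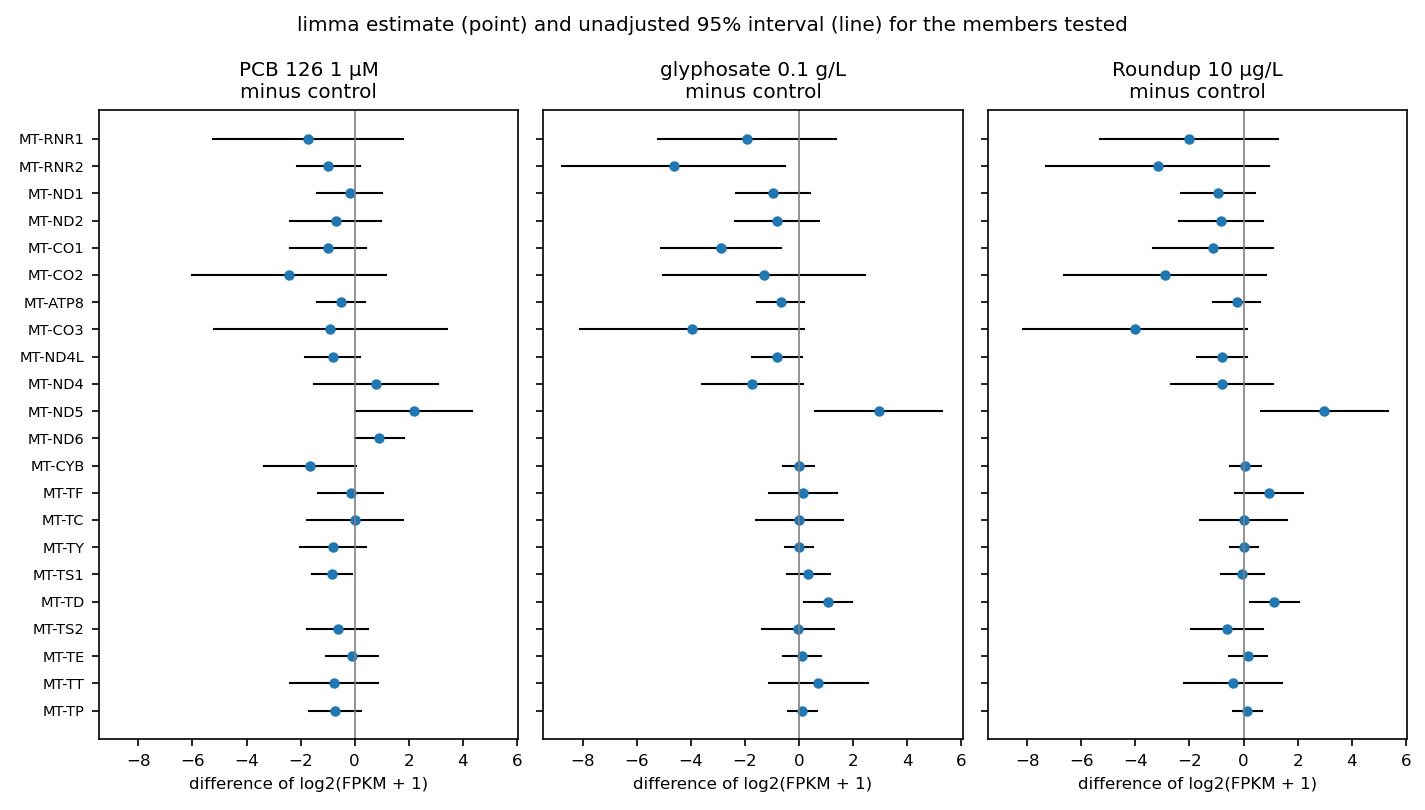
Differences of log2(FPKM + 1) between 3 exposed groups and the control group, with the limma estimate (point) and its unadjusted 95% interval (line) for each member tested in that table. Intervals for MT-CYB, MT-TY and MT-TP are short in the herbicide panels, while those of MT-RNR2 and MT-CO3 span several log2 units, and no member passed the adjusted threshold.

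Nuclear DNA carries many copies of mitochondrial sequence, and a read from a stretch that is identical in both cannot be placed by sequence. Of the 16495 windows of 75 bases on the mitochondrial chromosome, 2383 (14.4%) had an identical copy on a nuclear chromosome of GRCh38. The share was 36.6% of the windows of MT-CO1, 34.4% of MT-ND2, 28.4% of MT-RNR1, 28.01% of MT-ATP6, 17.1% of MT-ND1, 14.9% of MT-CO3, 10.5% of MT-CO2, 7.10% of MT-ND6, 3.37% of MT-RNR2 and 0.173% of MT-ND5. MT-CYB, MT-ND4, MT-ND4L, MT-ND3 and MT-ATP8 had none. Of these genes without such windows, MT-CYB was above 0 in 39 libraries, MT-ND4 in 12, MT-ATP8 in 10, MT-ND4L in 1 and MT-ND3 in none. The part of nuclear copies in the listing at 0 was not tested.

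**Figure D5:**
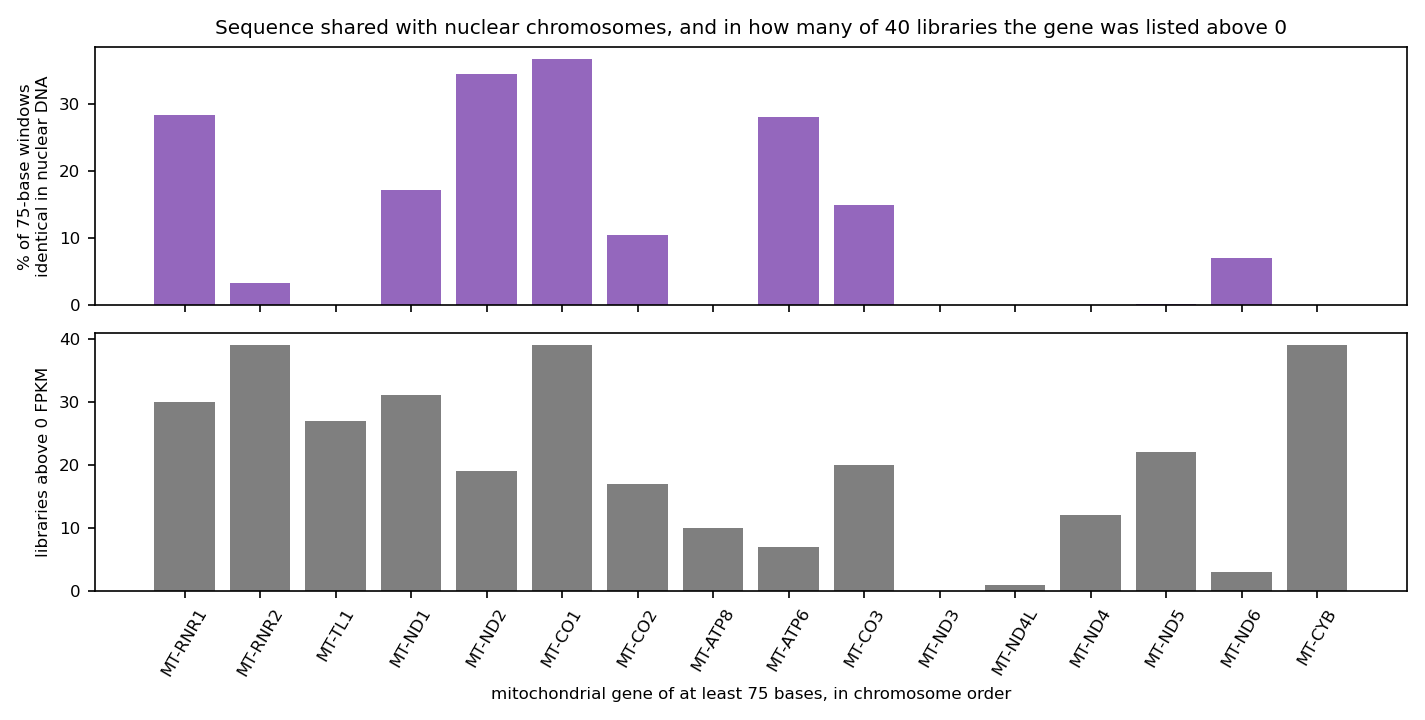
Percent of the 75-base windows of each mitochondrial gene of at least 75 bases with an identical nuclear copy (upper bars) and the number of 40 libraries in which the gene was above 0 FPKM (lower bars). Genes without such windows include both MT-CYB, above 0 in 39 libraries, and MT-ND3, above 0 in none. A link between the upper and lower bars was not tested.

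The tables list 405 genes named as nuclear copies of mitochondrial DNA, of which 162 were at 0 in all libraries. MTCO1P12 held 71.8% of their summed FPKM and ranged from 0.358 to 280 FPKM, below 3 FPKM in 14 libraries and above 10 in the 26 others. Its control values were 228, 280.1, 161, 1.28 and 109 FPKM. Those with PCB 126 were 129, 0.575, 156, 45.9 and 129 (100 pM), 0.589, 164, 0.522, 0.622 and 116 (10 nM) and 12.3, 62.9, 221, 26.3 and 114 (1 µM). With glyphosate they were 223, 275, 1.60, 0.667 and 76.2 (10 µg/L), 169.6, 63.5, 1.02, 1.00 and 131 (1 mg/L) and 220.3, 0.433, 0.578, 53.0 and 0.358 (0.1 g/L), and in Roundup 232, 67.4, 0.655, 0.550 and 30.3, so all groups overlapped the control group. In replicate 1 at 0.1 g/L MT-CO1 was listed at 0 while MTCO1P12 was at 220.3 FPKM, the only library with MT-CO1 at 0. The other nuclear copies with high means were MTND2P28 (0.294 to 18.2 FPKM, 98.4% identical to MT-ND2) and MTCO3P12 (0 to 6.94 FPKM, 98.2% identical to MT-CO3 over 547 bases). Of the 4 copies tested, 0 were called by limma in any comparison, with 1 at an unadjusted p under 0.05, at 10 nM, where 0.205% of all genes were called and 4.85% had an unadjusted p under 0.05, and the part of the copies in the values of MT-CO1 was not tested. With MT-CO1 and MTCO1P12 summed as 1 gene, the estimate at 0.1 g/L was -1.53 (limma, adjusted p = 1).

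The nuclear genes that express the mitochondrial chromosome were described from lists of factors for transcription and replication, RNA processing and turnover, regulators of mitochondrial content, and the mitochondrial ribosome. At 1 µM PCB 126, 1 of 15 tested transcription and replication genes and 1 of 7 tested regulators were lower by limma, 0 of 23 RNA processing genes and 0 of 75 mitochondrial ribosomal proteins were called, and none was called higher, at the background of 1.87% of all genes. The median differences of these 4 lists were -0.45 for transcription and replication, -0.21 for RNA processing, -0.36 for the regulators and -0.30 for the ribosomal proteins on the log2(FPKM + 1) scale, beside -0.26 for all genes tested. In every other comparison with control, and between Roundup and glyphosate, 0 members of the 4 lists were called by limma.

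PPARGC1A, a coactivator that drives the expression of many mitochondrial genes, was listed at 8.09, 8.28, 8.28, 4.04 and 3.80 FPKM in the control group. With PCB 126 it was at 5.85, 5.65, 5.69, 5.16 and 3.68 (100 pM), 2.45, 3.21, 1.82, 4.22 and 1.03 (10 nM) and 0.621, 1.94, 1.90, 2.16 and 1.07 (1 µM). All 5 values at 1 µM were below every control value. PPARGC1A fell by 1.54 ± 0.28 SE on the log2(FPKM + 1) scale at 1 µM (limma, adjusted p = 0.00268), and its difference at 10 nM was -1.09 ± 0.28 SE (adjusted p = 0.18). In the herbicide groups its medians were 6.01 to 6.19 FPKM for glyphosate and 4.66 for Roundup, with no call. At 1 µM the hepatocyte and biliary marker sums were lower as well, and their part in this difference was not tested.

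MTERF2, a member of the family of mitochondrial transcription termination factors, was listed at 4.25, 3.45, 3.40, 2.99 and 1.30 FPKM in the control group and at 0.559, 0, 0.495, 2.67 and 0 at 1 µM PCB 126. It fell by 1.36 ± 0.35 SE on the log2(FPKM + 1) scale at 1 µM (limma, adjusted p = 0.0409), with 2 of 5 libraries at 0 and 1 of 5 within the control range. The call was lost in 15 of 31 alternative fits, among them those without control replicate 1, 2, 3 or 4 and those without 1 µM replicate 1, 2, 3 or 5. TFAM, which packages mitochondrial DNA and is needed for its transcription, had 13.2, 14.8, 10.8, 9.08 and 6.45 FPKM in the control group and 5.402, 12.1, 6.90, 9.09 and 5.29 at 1 µM, a difference of -0.45 ± 0.29 SE (limma, adjusted p = 0.492). POLRMT, the mitochondrial RNA polymerase, differed by 0.06 ± 0.37 SE (adjusted p = 0.946), and LRPPRC, which stabilizes mitochondrial mRNAs, by -0.28 ± 0.27 SE (limma, adjusted p = 0.632), both with overlapping groups.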

How the data were processed

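RNA of HepaRG cells was sequenced in 40 libraries as 75-base paired reads after rRNA depletion with a directional kit. The authors aligned reads to GRCh38 with HISAT2 and assembled and quantified transcripts with StringTie and Ensembl release 89, and deposited FPKM values per transcript in 2 tables, PCB 126 and glyphosate. Tool versions and the strand setting of the quantification are not given in the sources used here. It is thus not known whether strand was used to assign reads of overlapping genes on opposite strands. Some deposited FPKM columns hold values below 0 and were recorded under the unit score, and these values (4 for PCB 126, 6 for glyphosate and Roundup) were set to 0. FPKM was summed per gene name. The 5 control libraries had identical values in both tables, and no other libraries were identical. All columns of library values were mapped to a sample.

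Groups came from the sample labels. The labels give no replicate numbers, so replicates are numbered in accession order, and nothing in them says that libraries came from separate cultures, so p-values measure only the spread between these samples. FPKM gives no fragment counts, hence no counting interval is given, and the number of libraries limits the precision. Genes with a variance of FPKM above 1 were tested on log2(FPKM + 1) with limma 3.58.1 in R 4.3.3, within each table, by a moderated F-test across groups and by contrasts, with Benjamini-Hochberg adjustment at 0.05. The study's own model was linear and without covariates after the same variance filter, on transcripts rather than genes. Simulated data took the mean and within-group SD of each gene from the real libraries, with independent normal noise. The fit recovered 99.5% of 200 genes with a log2 change of 3 at 1 µM PCB 126 (9755 genes) and 99% in Roundup (9533 genes). Of its calls, 4.33% and 4.81% were false. The noise held no shifts of whole libraries and no excess of values of 0, so error rates in the real libraries were not tested. The recovery holds for genes in general and not for members with larger errors, whose SE reached 2.09 (MT-CO3, PCB 126).

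Genes named by rule were MT-RNR1, MT-RNR2, MT-ND6, MT-CO1, MT-CYB, MT-ATP6, MT-ND1 and MT-ND5, with their values in all libraries, the 3 members with the smallest p across the groups of each table, with their values in that table, and TFAM, POLRMT, LRPPRC, PPARGC1A, nuclear list genes past the threshold and the 3 nuclear copies with the highest mean, with the values of some or all groups, a range or a difference. Other genes were named after their values were seen. The members and lists were chosen with earlier results of these data known. Alternatives were a pseudocount of 0.1, other filters, scaling between libraries, a block, other sets of groups, array weights, a dose trend, leaving out libraries including those with many multiply aligned read pairs, and, added after seeing the data, summing MT-CO1 with MTCO1P12 and counting all rows of the mitochondrial chromosome. Sequences and gene positions are from GRCh38 and GENCODE 44.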

Additional observations from a re-analysis of the deposited data

Results flagged for a closer look

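The share, selected mitochondrial genes and MTCO1P12 were each examined within the 8 groups, which gave 95 sets of 5 values. Of these, 23 had 1 library whose gap to the nearest other exceeded 0.71 of the set's range. Chance flags about 1 in 20 independent sets, but these sets reuse the same 40 libraries, so that share does not apply to them. Many of these sets hold several values of 0, so a single library above 0 is enough. The mitochondrial share was far above the rest in glyphosate 10 µg/L replicate 5 (0.879%) and 0.1 g/L replicate 3 (0.685%). These 2 libraries were also the only ones of their groups with MT-CO3 above 0, at 158 and 312 FPKM, as was Roundup replicate 4 at 270.0 FPKM.

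MT-RNR1 stood out in control replicate 5 (372 FPKM), 100 pM replicate 4 (41.9), 1 µM replicate 2 (585), glyphosate 10 µg/L replicate 5 (601), 1 mg/L replicate 2 (129) and Roundup replicate 1 (80.4). MT-ND1 did so in 1 µM replicate 3 (15.4 FPKM) and 0.1 g/L replicate 5 (7.69), and MT-ND5 in control replicate 5 (12.5) and 100 pM replicate 3 (25.9). MT-ND6 was apart in 10 nM replicate 5 (1.09 FPKM) and 1 µM replicate 3 (10.5). MT-ATP6 was apart in control replicate 4 (0.320 FPKM), 10 nM replicate 5 (0.344), 1 mg/L replicate 2 (0.673) and Roundup replicate 4 (0.584). The nuclear copy MTCO1P12 was apart in 0.1 g/L replicate 1 (220.3 FPKM) and Roundup replicate 1 (232).

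Of the 39 rows on the mitochondrial chromosome, 2 had no gene name and entered no comparison. The first, at positions 3 to 518, was above 0 in all 40 libraries and reached 44.8 FPKM in 100 pM replicate 2, against a highest control value of 37.96. The second, at positions 16202 to 16569, was above 0 in 4 libraries and reached 49.3 FPKM in Roundup replicate 3, while it was at 0 in the control libraries.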

How the results depend on the processing

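No mitochondrial gene was called across groups or in any contrast under any alternative except array weights and 1 left-out library. Array weights, whose estimation stopped before convergence, gave 2 members across the PCB 126 groups (MT-ND1 and MT-TS2), 1 at 1 µM (MT-ND5), 8 across the herbicide groups, 10 in Roundup against control (4 higher and 6 lower) and 3 in Roundup against glyphosate. With these weights 9.38% of all genes were called across the PCB 126 groups and 9.7% at 1 µM, and 36.4%, 46.7% and 58% in Roundup against control, in Roundup against glyphosate and across the herbicide groups, and Roundup replicate 3 had a weight of 30.4. Leaving out each library in turn gave 0 to 1 members across the PCB 126 groups, the 1 being MT-ATP8 without 100 pM replicate 3 (limma, adjusted p = 0.0102), and 0 in each contrast. That fit called 110 of the 9755 genes tested across the groups. The library left out was the only 1 at 100 pM with MT-ATP8 at 0. The labels give no replicate numbers. A replicate block made from the run of library numbers gave 0 members called and changed no call of a member. Many multiply aligned pairs were recorded for 9 libraries: 1 control, 2 at 10 nM and 2 at 1 µM PCB 126, 1 at 10 µg/L and 1 at 0.1 g/L glyphosate, and 2 in Roundup. Without them, the log2(FPKM + 1) differences of MT-CO3 and MT-ND5 at 10 µg/L glyphosate were -7.03 and 4.71, and those of MT-ND5 and MT-TD in Roundup 4.93 and 1.91 (limma, each with adjusted p = 1). Among the libraries left, MT-ND5 was at 0 in every control and above 0 in every library at 10 µg/L glyphosate and in Roundup. MT-CO3 was the reverse. With all 5 libraries per group, both genes overlapped the control group. Few libraries were left per group, and the share of all genes without overlap among them was not counted. No result about these 2 genes is therefore drawn from this separation.

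Under all 105 alternatives, the ratio of a group's median share to that of the control group moved by less than 1 SD. That SD is the spread between the libraries of the group, divided by the control median. Before the division it was as wide as 0.284% at 10 µg/L and 0.309% at 1 mg/L glyphosate, so that large moves could pass. The median at 1 mg/L glyphosate divided by that of the control group was 0.992 and dropped to 0.636 without replicate 2 or without replicate 3. Under quantile normalization, 6 of 45 nuclear genes of mitochondrial transcription, RNA processing and content and 5 of 75 mitochondrial ribosomal proteins were called at 1 µM, beside 11.1% of all genes. At 10 nM 1 of the 45, PPARGC1A, was called under quantile normalization (1.89% of all genes) and 75th-percentile scaling (0.707%). PPARGC1A at 1 µM was called under all 31 alternatives (limma, adjusted p from 1.76e-05 to 0.0158). Without fragment counts, it cannot be told whether a value of 0 is a low value or a failed estimate. MT-CO3 was over 100 FPKM in 19 of the 20 libraries where it was above 0.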
